A study of Mus musculus with 2 samples.

Results

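The Ly6 surface protein genes of the mouse were described in the mRNA of Dicer_KO mouse embryonic stem cells (mESCs). The 7 members, Ly6a, Ly6c1, Ly6d, Ly6e, Ly6h, Ly6k and Lynx1, were taken by gene symbol from 43629 listed genes, and all 7 were found. They were chosen by name after the counts of these same libraries had been seen, so their levels and ratios are a description and were not tested. Polyadenylated RNA was sequenced from 2 libraries that share 1 genotype, a Dicer knockout on a 129/Ola background: replicate 1 at passage 7 and replicate 2 at passage 4. By the study's methods the Dicer_KO mESCs descend from single sorted cells of the E14TG2a line, in which pairs of Cas9 guides had cut out a piece of Dicer1, and they were routinely grown in serum with LIF, a cytokine that holds mESCs in the undifferentiated state. The study made independent Dicer_KO lines that carry different deletions. The labels do not name the deletion or line of each library, and WT libraries were not analysed here. With 1 library per passage, the passage, the deletion, the cell clone and the library cannot be told apart, and no difference between the libraries has a replicate check.

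Ly6 proteins are small and cysteine-rich, and their disulfide bonds fold them into a bundle of finger-like loops, a fold shared with the urokinase receptor uPAR and with snake toxins. Most are tied to the outer face of the cell membrane by a glycosylphosphatidylinositol (GPI) lipid anchor. In the mouse many of their genes form a cluster on chromosome 15, and several are used as markers of blood cells and their progenitors, because each is shown on the surface of particular cell types.

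Sequences of 2 kinds bear on how these genes can be read in a Dicer knockout. The first are the microRNA target sites, since Dicer cuts mature microRNAs from their precursors. A microRNA pairs with its target mainly through its seed, bases 2 to 8. The microRNAs shown are those the study used to check the loss of Dicer: miR-295, of a cluster that mESCs express strongly, and miR-16, which is found in most tissues. The mature sequences are from RefSeq (GRCm38.p6), with the seed in capitals. miR-295-3p lies at chr7:3220815-3220837 and miR-16-5p at chr3:69009918-69009939, both on the plus strand.
mmu-miR-295-3p: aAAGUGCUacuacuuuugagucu
mmu-miR-16-5p: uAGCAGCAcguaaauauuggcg

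The 7-base complement of each seed was looked for on the sense strand of the 3′ untranslated region (3′UTR) of 1 transcript per gene. AGCACTT, the complement of the miR-295-3p seed and also of the seeds of miR-291a-3p and miR-294-3p, was found in 1 of the 7 members, Lynx1, and in 16.5% of 14659 genes searched. TGCTGCT, the complement of the miR-16-5p seed, was found in 3 members, Ly6a, Ly6e and Lynx1, and in 23.3% of all genes. Lynx1 also held GGCACTT, the complement of the seed of the related miR-290a-3p, at chr15:74748944-74748950; that string was present in 9.27% of all genes. Each site is shown with its flanking bases and the match in capitals, in GRCm38 coordinates of the match. All lie in the last of 4 exons, on the plus strand in Ly6e and on the minus strand in Ly6a and Lynx1. The Lynx1 3′UTR searched was 3379 nt long, that of Ly6e 1192 nt and that of Ly6a 384 nt, against a median of 1079 nt over all genes, and that of Lynx1 was the longest of the members. A match is a string of letters, and no microRNA was measured in these libraries.
Lynx1, miR-295-3p, chr15:74748019-74748025: tgatgcctAGCACTTcccttggt
Lynx1, miR-16-5p, chr15:74749928-74749934: actctgtcTGCTGCTagagctga
Ly6e, miR-16-5p, chr15:74959291-74959297: tggcttccTGCTGCTattctagt
Ly6a, miR-16-5p, chr15:74995033-74995039: ttgtggatTGCTGCTcatgaccc

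The second kind is the sequence that members share with near copies of themselves, which limits how well reads can be assigned. The coding sequences of Ly6a (402 nt) and Ly6c1 (393 nt) were 83.7% identical over the aligned bases, while Ly6a shared 64.6% with Ly6e. Beyond the members, Ly6c1 was 97.7% identical to Ly6c2, with 384 of 393 coding bases the same and an unbroken identical run of 188 nt, and Ly6a was 86.3% identical to Ly6i. Coding bases 50 to 129, the longest run that Ly6a shares with Ly6i, are shown for the 4 genes because they show where a read could come from more than 1 of them. Capitals mark bases that differ from Ly6a. In Ly6a the stretch is read from the minus strand, from chr15:74997535-74997555 in exon 2 and chr15:74996510-74996568 in exon 3 of 4.
Ly6a: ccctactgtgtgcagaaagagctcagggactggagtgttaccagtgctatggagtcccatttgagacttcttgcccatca
Ly6i: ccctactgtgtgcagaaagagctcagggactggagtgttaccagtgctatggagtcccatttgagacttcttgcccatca
Ly6c1: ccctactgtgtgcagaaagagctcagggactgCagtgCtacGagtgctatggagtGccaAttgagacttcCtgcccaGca
Ly6c2: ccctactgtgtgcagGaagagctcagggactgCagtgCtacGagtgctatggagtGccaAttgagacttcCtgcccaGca

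Ly6i has no difference from Ly6a in these 80 nt, Ly6c1 has 7 and Ly6c2 has 8. Over whole transcripts the shared part was smaller. Of all windows of 100 nt in the transcripts of Ly6c1, 10.1% occurred identically in transcripts of another gene, Ly6c2 or Ly6a, and the share for Ly6a was 1.45%, all with Ly6c1. In Ly6k 18.5% of the windows were shared with Gm17189, an antisense gene on the opposite strand of the same region. Ly6d, Ly6e, Ly6h and Lynx1 shared no window of this length. The counts of Ly6c1 and Ly6k are therefore uncertain. By the study's methods the mapping allowed many alignments per read. How the counting treated such reads, and its strand setting, are not given in the sources used here.

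The libraries were of nearly equal depth, with 41710122 counts on genes in replicate 1 and 41566184 in replicate 2, and a count of 3 stood for 0.0719 and 0.0722 CPM (counts per M counts on all genes). Dicer1, on chromosome 12, still gave 1343 counts in replicate 1 and 1510 in replicate 2, or 32.2 and 36.3 CPM. Counts over the whole gene do not check the genotype, since only a piece of the gene was removed. The study itself reported from its RNA sequencing that Dicer mRNA was lost in its mutants. It also reported no DICER protein by immunoblot and no mature miR-16 or miR-295 by northern blot. The pluripotency markers, such as Pou5f1 with 39069 and 43025 counts, were high in both libraries, and none of the 12 listed differed by 2-fold. Chromosome 15 stood apart. Taking genes whose mean count reached 10, the 683 on this chromosome had a median log2 ratio of replicate 1 over replicate 2 of 0.59, whereas each of the 18 other autosomes had a median from -0.08 to 0.08. All ratios were taken after scaling the counts of replicate 2 to replicate 1 by TMM, a method that assumes that most genes do not differ, and the log2 values after adding a pseudocount of 1.

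All 7 members had more counts in replicate 1 than in replicate 2, and the size of the difference varied widely among them. After scaling, 9129 of the 17788 genes whose mean count reached 10 were higher in replicate 1. On chromosome 15, where all members lie, this held for 578 of 683 genes. Of the 6 members whose mean count reached 10, 4 were 2-fold or more higher in replicate 1 (Ly6a, Ly6c1, Ly6d and Lynx1), against 14.2% of the 17788 genes that passed the same minimum and 29.1% of those on chromosome 15. The same 4 members were also 4-fold or more higher, against 4.17% of all genes and 9.66% of the genes of chromosome 15. No member was 2-fold or more lower, as were 7.14% of all genes and 1.46% of the genes of chromosome 15. The median log2 ratio of the 6 was 2.87, or 2.53 with Ly6d set to the ratio that its floor allows, and that of all 7 was 2.24, beside 0.02 over all genes. Ly6c1 and Ly6d passed the minimum only through replicate 1, where they are high, so their place in these counts and medians follows from the filter. With a minimum mean of 50 counts, 2 members were 2-fold or more higher. Since the members were also picked with these values known, nothing is read from these shares. In bulk RNA, more cells that express a gene and more RNA per cell cannot be told apart.

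**Figure D1:**
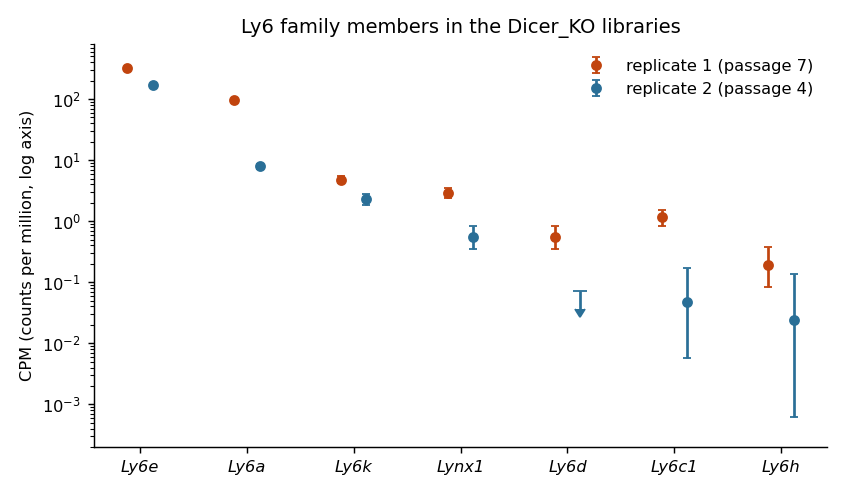
CPM of each member (log axis) in replicate 1 (orange) and replicate 2 (blue), ordered by mean CPM per kb, with bars for the exact 95% Poisson interval of the count and an arrow down from the floor of 3 counts for Ly6d, which had 0 counts in replicate 2. The intervals of the libraries are apart for every member except Ly6h, and the largest gaps are those of Ly6a, Ly6c1 and Ly6d.

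Ly6e and Ly6a carried nearly all of the family's RNA. Ly6e (ENSMUSG00000022587), which takes part in the defence against and the entry of several viruses and is found in many tissues, lies on the plus strand at chr15:74955051-74959905. It had 13518 counts in replicate 1 and 6973 in replicate 2. That is 324 CPM (95% interval 319 to 330, exact Poisson) and 168 CPM (164 to 172). Replicate 1 was the higher, by 1.78-fold after scaling (95% interval 1.73 to 1.83, exact conditional) and 0.83 on the log2 scale, the smallest log2 ratio of the 7. All such intervals cover counting error only. Relative to the median of chromosome 15 the log2 ratio of Ly6e was 0.24.

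Ly6a (ENSMUSG00000075602) encodes Sca-1, the stem cell antigen by which blood progenitors of the mouse are sorted, and lies on the minus strand at chr15:74994877-74998031. It had 4054 counts in replicate 1 and 328 in replicate 2, or 97.2 CPM (94.2 to 100.2) and 7.89 CPM (7.06 to 8.79). Replicate 1 was 11.4-fold higher (10.1 to 12.7), and the log2 ratio was 3.50, or 2.91 relative to the chromosome median. Ly6a was the member with the most counts behind a large difference. The genes lie 35.0 kb apart, yet Ly6e had 3.33 times the counts of Ly6a in replicate 1 and 21.3 times in replicate 2. Per kb of exon Ly6e stood 1.06 times above Ly6a in replicate 1, nearly level with it, and 6.77 times above it in replicate 2. The near level depends on the length used. All exons together span 3784 nt in Ly6e and 1205 nt in Ly6a, while the longest transcripts have 2281 and 955 nt.

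Ly6c1 (ENSMUSG00000079018) encodes a form of the Ly6C antigen of monocytes, T cells and endothelium, and is the nearest relative of Ly6a among the members. It lies on the minus strand at chr15:75044018-75048830, 46.0 kb beyond Ly6a. The gene had 48 counts in replicate 1 and 2 in replicate 2, or 1.15 CPM (0.849 to 1.53) and 0.0481 CPM (0.00583 to 0.174). Replicate 2 was below the floor of 3 counts, and the ratio of 22.1-fold had an interval from 5.78 to 187. Its log2 ratio with the pseudocount was 3.95. These counts were 1.18% of those of Ly6a in replicate 1 and 0.610% in replicate 2. How many of them were reads shared with Ly6a was not tested. The near copies Ly6c2, with 7 and 0 counts, and Ly6i, with 13 and 2, were also higher in replicate 1. They are named for their sequence, after their values were seen.

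Ly6d (ENSMUSG00000034634), a marker of lymphoid progenitors and of stratified epithelium, lies on the minus strand at chr15:74762056-74763620. It had 23 counts in replicate 1, or 0.551 CPM (0.350 to 0.827), and 0 counts in replicate 2, which allows a level of up to 0.0722 CPM by the floor of 3 counts. Replicate 1 was at least 7.04-fold higher against that floor, and the exact conditional 95% interval of the ratio, which allows for the counting error of both counts, had a lower limit of 5.28-fold. Ly6d, like Ly6c1, passed the minimum of 10 counts only through replicate 1, and its fitted log2 ratio of 4.58 depends on the pseudocount. Lynx1 (ENSMUSG00000022594), which binds nicotinic acetylcholine receptors in the brain and damps their response, lies 9.01 kb from Ly6d at chr15:74747852-74753046, also on the minus strand. It had 122 counts in replicate 1 and 23 in replicate 2, or 2.92 CPM (2.43 to 3.49) and 0.553 CPM (0.351 to 0.830). Lynx1 was thus 4.87-fold higher in replicate 1 (3.10 to 7.98), with a log2 ratio of 2.24, or 1.65 relative to the chromosome median.

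Ly6k (ENSMUSG00000044678), a protein of male germ cells that works with Tex101 in sperm, lies on the minus strand at chr15:74796874-74799986. It had 200 counts in replicate 1 and 95 in replicate 2, or 4.80 CPM (4.15 to 5.51) and 2.29 CPM (1.85 to 2.79). The ratio was 1.93-fold (1.51 to 2.50) and the log2 ratio 0.95, which passes 2-fold only when the libraries are scaled by total counts (1.06). Relative to the chromosome median it was 0.35. Gm17189, the antisense gene that overlaps it, had 163 and 41 counts, a log2 ratio of 1.85, and how reads were divided between them was not tested. Ly6h (ENSMUSG00000022577), which like Lynx1 acts on nicotinic receptors in the brain, lies farthest out at chr15:75551268-75567255 on the minus strand. It had 8 counts in replicate 1 and 1 in replicate 2, or 0.192 CPM (0.0828 to 0.378) and 0.0241 CPM (0.000609 to 0.134). The ratio of 7.35-fold had an interval from 0.985 to 326, so that a difference was not detectable at this depth.

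To compare levels between genes, CPM was divided by the exon length of each gene. Ly6e had the highest mean level, 65.0 ± 29.2 CPM per kb (SD, n = 2), and ranked 521 among all genes in replicate 1 and 1201 in replicate 2. Ly6a followed with 43.6 ± 52.4 CPM per kb, from 80.7 in replicate 1 and 6.55 in replicate 2, and ranked 566 and 7007. The ranges of these neighbours in the order overlapped. Ly6k came next at 4.27 ± 2.14 CPM per kb, below both values of Ly6a and above both values of Lynx1. Lynx1 (0.373 ± 0.360), Ly6d (0.371 ± 0.524) and Ly6c1 (0.357 ± 0.465 CPM per kb) could not be told apart by their ranges, and neither could Ly6c1 and Ly6h, which had the lowest mean at 0.0255 ± 0.0281 CPM per kb. The order from Ly6e through Ly6a to Ly6k was the same in both libraries, while the low members changed places.

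The makeup of the family's RNA therefore differed between the libraries. The 7 members held 17973 counts in replicate 1, or 431 CPM in sum, and 7422 counts in replicate 2, or 179 CPM. Ly6e took 75.2% of these counts in replicate 1 and 94.0% in replicate 2, and Ly6a took 22.6% and 4.42%. Without Ly6e the sum was 4455 counts in replicate 1 and 449 in replicate 2. Above the floor of 3 counts, all 7 members were detected in replicate 1, and 4 of them, Ly6a, Ly6e, Ly6k and Lynx1, in replicate 2.

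The members share their place. All 7 lie within 819 kb at chr15:74747852-75567255, 6 on the minus strand and Ly6e on the plus strand. Between the outermost members 32 other genes are listed, of which 17 had 0 counts in both libraries and 2 passed the minimum. The gap of 502 kb between Ly6c1 and Ly6h holds 18 listed genes, none with a mean count of 10 or more. Extended by 1 Mb on both sides, the region holds 55 other genes that passed the minimum. Of these 52 were higher in replicate 1, 23 (41.8%) by 2-fold or more, and 0 were lower by 2-fold or more. Their median log2 ratio was 0.81, with quartiles of 0.34 and 1.34, and within 5 Mb it was 0.75 over 161 genes.

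Most neighbours near the members had smaller ratios than Ly6a. The neighbours with a mean count of 100 or more that lie nearest to Ly6a were, besides Gm17189, Lypd2, Them6, Jrk, Arc, Mroh4, Adgrb1 and Zfp41. Lypd2, itself a Ly6-type gene, had 203 and 46 counts, a ratio of 4.05-fold. Mroh4 had 397 and 110 counts and a log2 ratio of 1.72. Arc, an immediate early gene of neurons, had 3120 and 1183 counts, or 1.28. The log2 ratios of the others ran from 0.55 for Adgrb1 to 1.35 for Them6. All 8 log2 ratios lay below the 2.24 of Lynx1 and above 0. Lynx1 itself, with a mean count of 72.5, falls short of the 100 asked of these neighbours. So does Psca, a relative on chromosome 15 with 141 and 5 counts and a log2 ratio of 4.46. Of the members that reach 100, Ly6e (0.83) and Ly6k (0.95) lie within the range of the 8, and Ly6a (3.50) lies above it. The part of the higher ratios over chromosome 15 in the members' ratios was not tested, beyond the values relative to its median given for Ly6a, Ly6e, Ly6k and Lynx1.

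**Figure D2:**
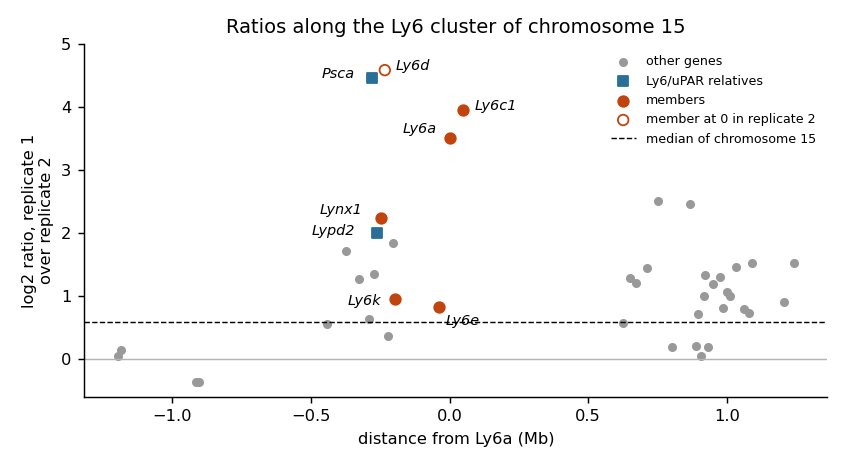
Log2 ratio of replicate 1 over replicate 2 (y axis) against the distance from Ly6a in Mb (x axis) for genes around Ly6a on chromosome 15 whose mean count reached 10, with members in orange (Ly6d, at 0 in replicate 2, as an open circle at its fitted value), relatives as blue squares and the chromosome median as a dashed line at 0.59. Ly6c1, Ly6a, Ly6d and the relative Psca lie above every other gene within the distances plotted, and Ly6e and Ly6k lie among the neighbours; Ly6h is below the minimum and not shown.

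**Figure D3:**
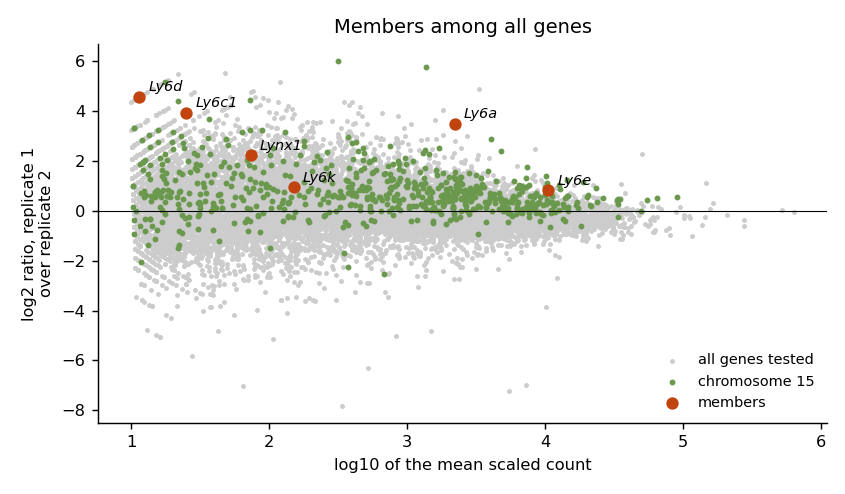
Log2 ratio of replicate 1 over replicate 2 (y axis) against the log10 mean scaled count (x axis) for the 17788 genes whose mean count reached 10 (grey), those of chromosome 15 in green and the members in orange. The spread of all genes widens toward low counts, where Ly6d (4.58, fitted against 0 counts) and Ly6c1 (3.95) lie, and Ly6a (3.50) is the member farthest from 0 among those with high counts.

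The relatives of the family were compared next. Over all genes that passed the minimum, 14.2% were 2-fold or more higher in replicate 1 and 7.14% were lower. Of 36 genes listed as Ly6/uPAR relatives, 17 passed the minimum, and 13 of these were higher in replicate 1. Of the 17, 6 were higher and 0 lower by 2-fold or more, with a median log2 ratio of 0.85. A further 8 had 0 counts in both libraries (Slurp1, Slurp2, Ly6l, Gml, Lypd8, Pate1, Pate3 and Pate4). On chromosome 15 only Psca and Lypd2 of 13 relatives passed, and both were 2-fold or more higher, as were 29.1% of all genes of chromosome 15. The median log2 ratio of these 2 genes was 3.23, beside the 2.87 of the members. Psca passed only through replicate 1, where it is high, as did Ly6c1 and Ly6d among the members. Psca, prostate stem cell antigen, had 141 counts in replicate 1 and 5 in replicate 2, a ratio of 25.9-fold (10.8 to 81.0) and a log2 ratio of 4.46. On other chromosomes 15 of 23 relatives passed, 4 by 2-fold or more, and their median was 0.60.

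Those 4 were Lypd3 (149 and 27 counts, log2 ratio 2.30), Pinlyp (42 and 8, 2.15), Lypd6 (224 and 84, 1.28) and Cd59b (166 and 71, 1.09). Pinlyp, like Psca, passed only through replicate 1, where it is high, so its place among the 4 follows from the filter. Cd59b and its neighbour Cd59a (645 and 392 counts, 0.60) encode inhibitors of the complement membrane attack complex, and Lypd6 acts in Wnt signalling. The relatives with the most counts had small ratios. Plaur, the urokinase receptor itself, had 2546 and 2444 counts and a log2 ratio of -0.06, and Ly6g6e on chromosome 17 had 1027 and 764 counts, or 0.30. The other Ly6g genes of chromosome 17 that passed had log2 ratios of 0.96 (Ly6g6d), 0.89 (Ly6g5b), 0.55 (Ly6g5c) and 0.28 (Ly6g6c). Lypd6b stood at -0.02, Pate2 at -0.31 and Lypd5, with 53 and 96 counts, at -0.97. Tex101, the partner of Ly6k, had 42 and 21 counts, or 0.85.

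The enzymes that build and attach the GPI anchor were nearly level between the libraries. All 30 listed genes passed the minimum, 2 were 2-fold or more higher in replicate 1 (Dpm3 and Gpld1) and 0 lower, and the median log2 ratio was 0.18. For this list and the next, the shares over all genes were 14.2% higher and 7.14% lower. Dpm3, a subunit of the dolichol-phosphate-mannose synthase, had 315 and 123 counts, or 1.23, followed by Pigh and Pigc at 0.70 and 0.69. At the other end Dpm1, the catalytic subunit of the same synthase, had 176 and 321 counts, or -0.99, and Pigl and Pigm stood at -0.74 and -0.57. Gpld1, a phospholipase that cuts the anchor, is named after its values were seen. It had 26 and 7 counts and passed only through replicate 1. Of 16 nicotinic receptor subunits, the partners of Lynx1 and Ly6h, 9 passed, 5 were higher and 1 was lower by 2-fold or more, and the median was 1.47. That median depended on the count minimum, and was 0.26 without one and 0.73 with a minimum mean of 50 counts. Chrne, with 17 and 4 counts, passed only through replicate 1 and is among the 5 that were higher. Chrnd had 189 and 16 counts (3.37), Chrnb1 276 and 91 (1.47) and Chrna9 265 and 524 (-1.10), while Chrna3 was at 0 in both libraries.

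Ly6a, Ly6c1 and Ly6e are known to respond to interferons, and a list of interferon-induced genes was set beside them. Of 34 genes 31 passed the minimum, 15 were 2-fold or more higher in replicate 1 and 1 was lower, beside 14.2% and 7.14% of all genes. Among these 15 genes, Irf7, Isg15, Usp18, Ifi27 and Mx2 passed only through replicate 1, where they are high. Their place in this count and in the median follows from the filter. The median log2 ratio was 0.93, and none of the 34 lies on chromosome 15. Oasl2 (2969 and 214 counts, 3.67), the double-stranded RNA sensor Ifih1 (342 and 40, 2.95) and the immunoproteasome subunit Psmb8 (1497 and 183, 2.90) had ratios near that of Ly6a. Ddx58, the sensor RIG-I, went the other way with 2525 and 5147 counts, or -1.15, and Ifit2 and Oas1a stood at -0.82 and -0.27. Ifi44 was at 0 in both libraries. The sum over the list was 1617 CPM in replicate 1 and 1180 CPM in replicate 2, a ratio of 1.37-fold.

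Markers of cell types in which members are known were also compared. The trophectoderm list, of the outer layer of the blastocyst, differed most. Of 10 genes 9 passed, 8 were 2-fold or more higher in replicate 1 and 0 lower, beside 14.2% and 7.14% of all genes. The median was 2.42, or 1.55 without the 3 keratin genes that lie on chromosome 15. Its sum was 604 CPM in replicate 1 and 161 CPM in replicate 2. Krt7 had 2674 and 44 counts, Krt18 7162 and 880, and the transcription factor Hand1 of trophoblast 229 and 15, whereas Tead4 was level at 2915 and 2908. Tfap2c and Eomes stood at 1.39 and 1.02, and Cdx2, the defining factor of this lineage, had 6 counts in replicate 1 and 1 in replicate 2.

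Blood and endothelial markers, the setting in which Ly6a and Ly6c1 are best known, went both ways. Of 12 genes 11 passed, 4 were higher and 2 lower by 2-fold or more, with a median of 0.10 and sums of 461 and 323 CPM. For this and the other lists of this paragraph, the shares over all genes were 14.2% higher and 7.14% lower. Kit had 5359 and 1038 counts (2.24) and Gata2 stood at 1.66, Tal1 at 0.48, Cd34 at -0.66 and Gata1 at -1.64, while Kdr had 90 and 353 counts (-2.08). Ptprc, the pan-leukocyte marker CD45, had 5 and 4 counts. Runx1, with 20 and 2 counts, passed only through replicate 1 and is among the 4 that were higher. Of 10 stratified epithelium markers 6 passed, 1 was higher (Col17a1, 1.00) and 1 lower (Krt13, -1.07), with a median of 0.82 and sums of 30.2 and 17.9 CPM; Krt6a was at 0 in both libraries. Of 12 fibroblast markers 5 passed and 1 was higher, Pdgfrb with 285 and 91 counts, with a median of 0.12 and sums of 33.9 and 24.1 CPM. Thy1 and Twist1 stood at 0.28 and 0.12, Col1a1 had 20 and 18 counts, and Postn was at 0. Dcn went the other way, with 0 counts in replicate 1 and 19 in replicate 2, and fell short of the minimum.

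The 12 pluripotency genes had a median of -0.01, from Sall4 at -0.67 to Nanog at 0.74, and sums of 6262 and 5542 CPM, a ratio of 1.13-fold. Klf4 and Fgf4 stood at 0.43 and 0.35, and Zfp42 and Dppa3 at -0.32 and -0.31. The part of trophectoderm-like, blood-like, fibroblast-like or interferon-responding cells in the members' ratios was not tested.

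**Figure D4:**
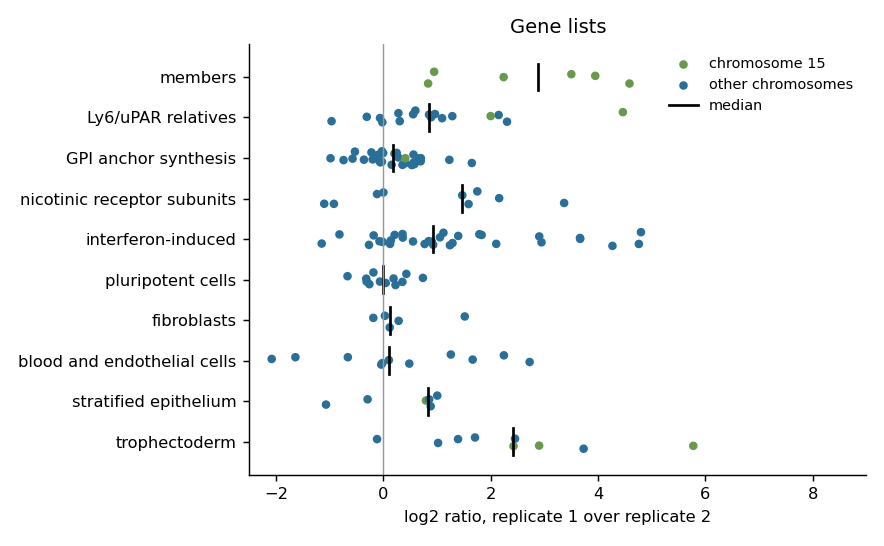
Log2 ratio of replicate 1 over replicate 2 (x axis) of each gene whose mean count reached 10 in the members and 9 other gene lists (rows), with genes of chromosome 15 in green, those of other chromosomes in blue and the list median as a black bar; vertical scatter within a row has no meaning. The median is 2.42 for the trophectoderm list and -0.01 for the pluripotency list; the members, chosen with these values known, spread from 0.83 to 4.58 (Ly6d, fitted against 0 counts).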

How the data were processed

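Reads had been trimmed by the authors (Trimmomatic), mapped to mm10 (GRCm38) by STAR (version 2.4.2a) and assigned to genes of Ensembl by featureCounts (version 1.4.5-p1), which skipped those where genes overlap. Raw counts per gene were deposited, with no normalization. The mapping allowed many alignments per read, and the kit kept strand. The strand setting of the counting and its treatment of reads with several alignments are not given in the sources used here.

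Positions and exon lengths came from GENCODE M21; 1081 listed identifiers, with 0.152% and 0.168% of the counts, had no entry. CPM used all counts on genes. Counts of replicate 2 were multiplied by 1.09, the TMM scale of edgeR (version 4.0.16, R 4.3.3). Exact Poisson and conditional intervals were computed with scipy (version 1.17.1). Sequences of microRNAs came from RefSeq. The promoter of Ly6c1 alone among the members was matched and is not reported. The scripts were checked on simulated counts.

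Members and lists were chosen with earlier results of these data known. Named genes are the members, relatives whose mean count reached 10, up to 3 highest and 3 lowest ratios of each other list among genes whose mean count reached 100, the 8 such neighbours nearest to Ly6a, and Dicer1. Genes named outside this rule are Ly6c2, Ly6i, Gpld1, Chrne, Irf7, Isg15, Usp18, Ifi27, Mx2, Krt8, Runx1, Col1a1, Dcn, Ptprc, Cdx2 and Pou5f1, and genes listed at 0. Nothing in the labels says that the libraries came from separate cultures. Alternatives were DESeq2 size factors (version 1.42.0), total counts, TMM without chromosome 15, a pseudocount of 0.1, other count minimums, windows of 50 nt, the longest transcript, and leaving out each replicate. Ratios relative to the chromosome 15 median and lists without its genes were added after seeing the data.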

Additional observations from a re-analysis of the deposited data

How the results depend on the processing

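No paired analysis was possible because the libraries form 1 group with no contrast between groups. No member changed direction under any of the scalings, pseudocounts or minimums tried. The count minimum set most of the counts of genes. With a minimum mean of 50 counts, 2 members (Ly6a and Lynx1) were 2-fold or more higher in replicate 1 in place of 4, because Ly6c1 and Ly6d were no longer counted, and 1643 genes were higher and 681 lower by 2-fold or more, in place of 2533 and 1270. Without a minimum 5114 genes were higher and 3888 lower, and the median log2 ratio of the neighbours in the cluster fell from 0.81 to 0.49, and that of the nicotinic receptor subunits from 1.47 to 0.26. At 4-fold 741 genes were higher and 275 lower. Scaling by total counts moved the median of all genes from 0.02 to 0.14, the ratio of Ly6e from 0.83 to 0.95, and put Ly6k past 2-fold at 1.06, so that 5 members were counted. Per kb of the longest transcript, the mean of Ly6e was 108 CPM in place of 65.0, and that of Ly6a 55.0 in place of 43.6. Ly6h had 0.0385 in place of 0.0255, and Ly6c1 0.710 in place of 0.357. That puts Ly6c1 above Lynx1 (0.432) and Ly6d (0.371) in the order of means. Windows of 50 nt raised the shared part of Ly6c1 to 32.8%, of Ly6k to 32.7%, of Ly6a to 19.0% and of Ly6h to 0.206%. Depth limits Ly6c1, Ly6d and Ly6h, which had at most 2 counts in replicate 2, and with 1 library per passage leaving out a replicate leaves a level and no ratio.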
